A study of Mus musculus with 8 samples.

Results

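The genes that carry fatty acids into the mitochondrion and break them down, together with classical targets of peroxisome proliferator-activated receptor (PPAR) alpha, were examined in mouse ovary. The list held 34 genes, chosen by gene symbol, and each gene was read from the brightest array probe that carried its symbol alone. Such a probe was found for 30 of the 34, out of 18069 genes named on the array, and all 30 passed the filter on dim probes. Acsl1, Hadha and Ucp2 had no named probe and were not analysed here, and Cyp4a10 was measured only on a probe shared with its close relative Cyp4a31.

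The ovaries came from female Lethal Yellow mice of genotype C57BL/6J Ay/a (LY mice), which are heterozygous for a dominant mutation at the agouti locus and become obese as adults. Pioglitazone-treated LY mice (n = 4) received 0.1 mg/day of the drug in DMSO by gavage, as the labels give it, and vehicle-treated LY mice (n = 4) received DMSO alone, both from 120 to 180 days of age. The study's own text states a lower daily dose, so the dose is uncertain. All 8 mice carried the Ay allele and had fasted overnight, 1 ovary of each was trimmed of fat and run on 1 CodeLink one-colour array, and estrous stage was not given in the sources used here. Pioglitazone is a thiazolidinedione, an agonist of PPAR gamma, and the study's text says that it may activate PPAR alpha as well.

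Fatty acids are bound in the cytosol, activated to acyl-CoA, passed over the mitochondrial membranes as acylcarnitines and shortened by repeated rounds of beta-oxidation, whose electrons enter the respiratory chain through the electron transfer flavoprotein. Very long and branched chains are first shortened in the peroxisome. In liver and muscle many of these genes are switched on by PPAR alpha or PPAR delta, which bind DNA together with a retinoid X receptor, and in the ovary fatty acid oxidation is known from the oocyte and its cumulus cells and from steroid-making cells.

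The receptor pair is known to bind a repeat of the hexamer AGGTCA with a single base between the copies, so the 250 bases before each start site (RefSeq, GRCm38.p6) were searched for the hexamer and the repeat on both strands. A window was at hand for 25 of the 30 measured genes. The hexamer lay in 4 of these 25 windows (16.0%), against 14.0% of all 32851 windows. The 4 genes were Acadm, Acadvl, Cpt1a and Ucp3. The repeat, AGGTCA with 1 further base and AGGTCA again, was in 0 of the 25 windows and in 0.0335% of all windows, and a looser form, built in the same way from AGGNCA, was in 0 of the 25 and in 0.338% of all. These are matches of letters in a short window and not binding sites. The windows of Acadm (chr3:153944644-153944893, minus strand), Cpt1a (chr19:3323051-3323300, plus strand) and Ucp3 (chr7:100472741-100472990, plus strand) are printed because the levels of these genes are followed mouse by mouse below. Each runs 5′ to 3′ along its gene and ends at the base before the start site of the sequence table, with the hexamer or its reverse complement in capitals.
Acadm: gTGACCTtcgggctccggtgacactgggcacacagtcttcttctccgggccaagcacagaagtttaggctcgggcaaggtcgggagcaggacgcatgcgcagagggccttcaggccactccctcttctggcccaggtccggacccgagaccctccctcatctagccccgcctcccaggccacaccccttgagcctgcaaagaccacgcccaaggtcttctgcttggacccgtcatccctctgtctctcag
Cpt1a: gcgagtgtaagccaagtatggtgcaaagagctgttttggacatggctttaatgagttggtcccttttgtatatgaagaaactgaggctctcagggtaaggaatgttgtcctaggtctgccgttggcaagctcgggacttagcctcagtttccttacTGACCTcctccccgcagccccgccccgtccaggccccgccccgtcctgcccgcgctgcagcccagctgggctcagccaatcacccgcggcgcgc
Ucp3: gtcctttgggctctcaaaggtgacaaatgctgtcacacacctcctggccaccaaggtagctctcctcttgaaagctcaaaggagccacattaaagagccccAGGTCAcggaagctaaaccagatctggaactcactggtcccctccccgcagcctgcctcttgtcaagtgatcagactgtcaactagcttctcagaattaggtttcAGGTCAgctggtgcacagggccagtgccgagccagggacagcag
The match began 249 bases before the start site in Acadm and 94 bases before it in Cpt1a, both on the strand opposite to the gene. The start site used for Cpt1a lies inside the full span of the gene given below, which begins farther upstream. Ucp3 held a pair of matches, 149 and 44 bases before its start site, on the strand of the gene.

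Levels are given in relative intensity units, that is, the deposited intensity divided by the median of its array, and 0.2 units is the limit of sensitivity used by the study. Brightness depends on the probe, so levels were compared between mice. A difference in level between genes is not read as a difference in RNA, and sums over markers lean toward their brightest probes. The 8 arrays correlated at 0.937 to 0.989 on the log2 scale, and between 82.5% and 83.9% of the values on each array were at or above 0.2. Pioglitazone mouse 1 and vehicle mouse 1 lay farthest to the same side on the first principal component, which held 39.2% of the variance, and pioglitazone mouse 1 stood the farthest out. No gene on the array passed an adjusted p of 0.05 (limma, Benjamini-Hochberg over 30634 probes). At an unadjusted p under 0.05 there were 1685 probes (5.5%), or 2635 (8.6%) with the mouse number as a block, so a call below means only this unadjusted threshold.

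None of the 30 genes reached it, while the probe that Cyp4a10 shares with Cyp4a31 did, as described with its values. The background over all named genes was 4.85%, made up of 1.57% higher and 3.27% lower with pioglitazone, and adjusted p values of the 30 genes ran from 0.837 to 1.0. With the mouse number as a block the count was again 0 of 30, where 8.02% of named genes were called. Log2 fold changes, pioglitazone over vehicle, ran from -0.52 (Acsl4) to 0.38 (Ucp3), with 10 above and 20 below 0. Their median was -0.15, against -0.04 over all named genes, of which 43.4% were above 0. Without pioglitazone mouse 1 the median of the 30 genes was -0.03. The groups did not overlap for 1 of 30 genes, Etfdh, against 4.18% of all named genes. Precision differed widely between genes. The 95% interval of the log2 fold change lay within -1 and 1, that is, within a 2-fold change either way, for 21 of the 30 genes and reached beyond it for 9 (Fabp3, Acsl4, Cpt1a, Cpt2, Slc25a20, Crot, Acadm, Acads and Pdk4), so a 2-fold difference in those 9 lay within the error of 4 mice per group.

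**Figure D1:**
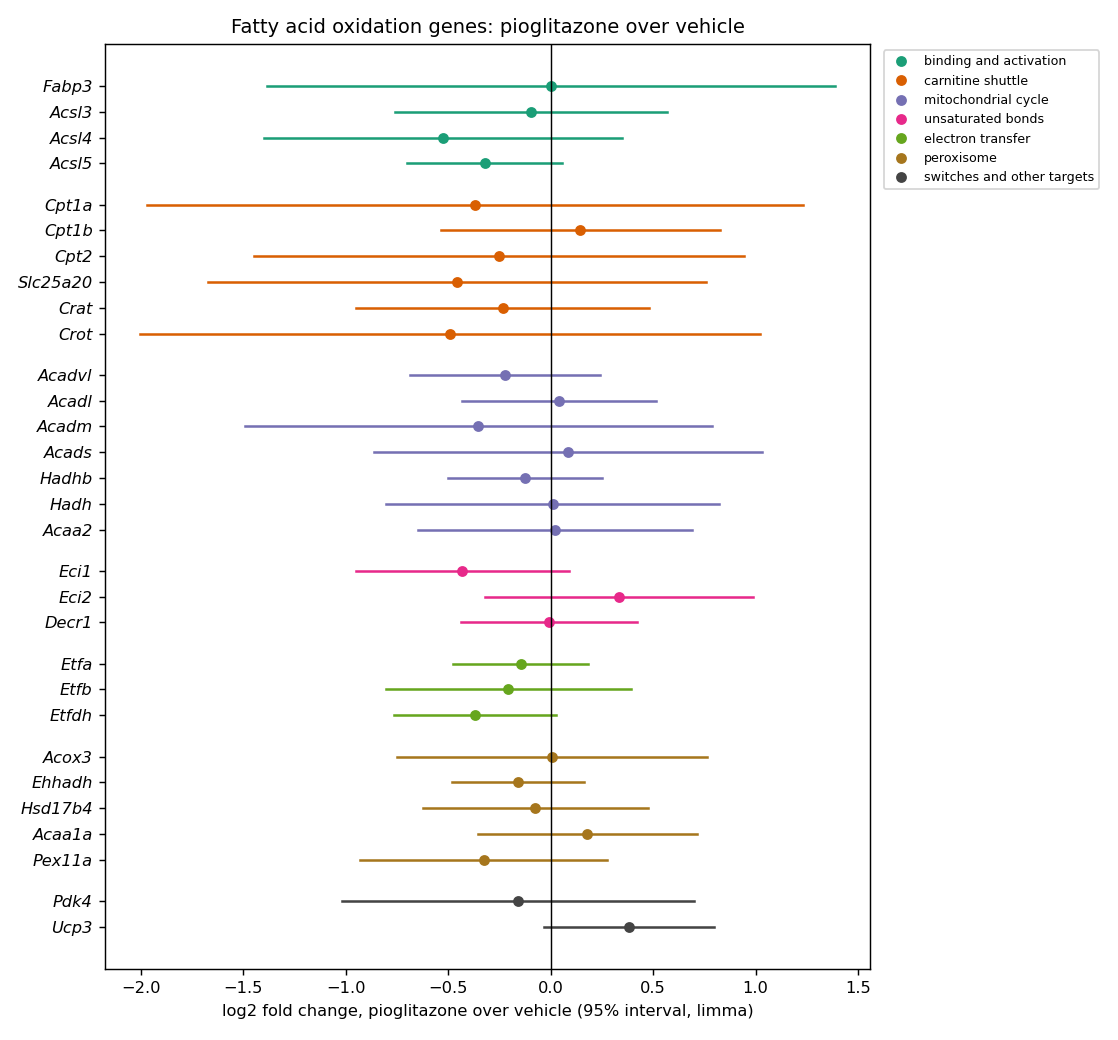
Log2 fold change of each of the 30 measured genes, pioglitazone over vehicle, with its 95% interval (limma), coloured and grouped by role. Every interval crosses 0. The intervals are widest in Cpt1a (standard error 0.71), Crot (0.671) and Fabp3 (0.615) and narrowest in Ehhadh (0.142).

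Of the binding and activation genes, 4 were measured. Fabp3, the heart-type fatty acid binding protein, had the largest swing between mice among them. It was at 83.5, 34.5, 22.03 and 63.2 units in pioglitazone mice 1 to 4, against 110, 18.0, 26.6 and 75.03 units in vehicle mice 1 to 4. Mice 1 and 4 were high and mice 2 and 3 low in both groups, and the ranges overlapped almost wholly. The log2 fold change of 0.00 (standard error 0.615) therefore came with an interval of -1.38 to 1.39. Fabp3 was chosen for this account after its values were seen.

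Acsl4 (chrX:142317993-142390802) encodes an acyl-CoA synthetase that prefers arachidonic acid, and it had the lowest log2 fold change of all 30 genes. Its level was 0.281, 0.294, 0.653 and 0.309 units in pioglitazone mice and 0.301, 0.801, 0.778 and 0.38 units in vehicle mice. Pioglitazone mouse 3 stood above the other pioglitazone mice, and vehicle mouse 1 was as low as they were. Acsl4 had a log2 fold change of -0.52 (standard error 0.388, adjusted p = 0.865). It passed the unadjusted threshold only without pioglitazone mouse 3, at -0.81. Acsl5, a synthetase of the mitochondrial outer membrane and endoplasmic reticulum, averaged 12.6 ± 2.23 units in pioglitazone mice and 15.7 ± 1.71 units in vehicle mice (SD, n = 4 each). This was a difference of -0.32 on the log2 scale with an unadjusted p of 0.0863 in limma. Acsl3, a synthetase found on lipid droplets, had a log2 fold change of -0.10.

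The carnitine shuttle was measured in full, with 6 of 6 genes. Cpt1a (chr19:3322326-3385735), the liver-type carnitine palmitoyltransferase that sets the rate of entry of long chains, varied more between mice than any other shuttle gene. In pioglitazone mice it was at 0.435, 1.51, 3.81 and 0.556 units, and in vehicle mice at 0.597, 2.11, 2.77 and 1.11 units. In each group mouse 1 was lowest, then mouse 4, then mouse 2, with mouse 3 highest. Pioglitazone mice averaged 1.58 ± 1.57 units and vehicle mice 1.65 ± 0.977 units (SD, n = 4 each). Its log2 fold change was -0.37, with an interval of -1.97 to 1.23.

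Cpt1b (chr15:89416405-89425862), the muscle-type form of the same enzyme, was close to the limit of sensitivity. Pioglitazone mice had 0.218, 0.23, 0.388 and 0.274 units and vehicle mice 0.14, 0.33, 0.33 and 0.233 units. Mouse 1 was again lowest in both groups, and vehicle mouse 1 fell under 0.2. This gave a log2 fold change of 0.15 (standard error 0.302).

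Crot (chr5:8966033-8997146) encodes the carnitine octanoyltransferase that passes chains shortened in the peroxisome on to the mitochondrion. Its level was 0.401, 2.96, 4.53 and 2.37 units in pioglitazone mice, against 1.48, 3.31, 3.55 and 2.87 units in vehicle mice. Pioglitazone mouse 1 was far below the other 7 mice, and vehicle mouse 1 came next. The log2 fold change of -0.49 (standard error 0.671, adjusted p = 0.914) turned to 0.25 without pioglitazone mouse 1. Cpt2, the inner-membrane transferase, had 0.868 units in pioglitazone mouse 1 against a vehicle mean 4.37 times as high, and Slc25a20, the carnitine-acylcarnitine carrier, had 0.177 units there against a vehicle mean 4.84 times as high. Their log2 fold changes, -0.25 and -0.46, also turned positive without that mouse, at 0.37 and 0.14. Crat, the carnitine acetyltransferase, had a log2 fold change of -0.23, which was 0.02 without it. Without both mice numbered 1, the sign turned for Cpt2 but not for Crot, Slc25a20 or Crat.

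**Figure D2:**
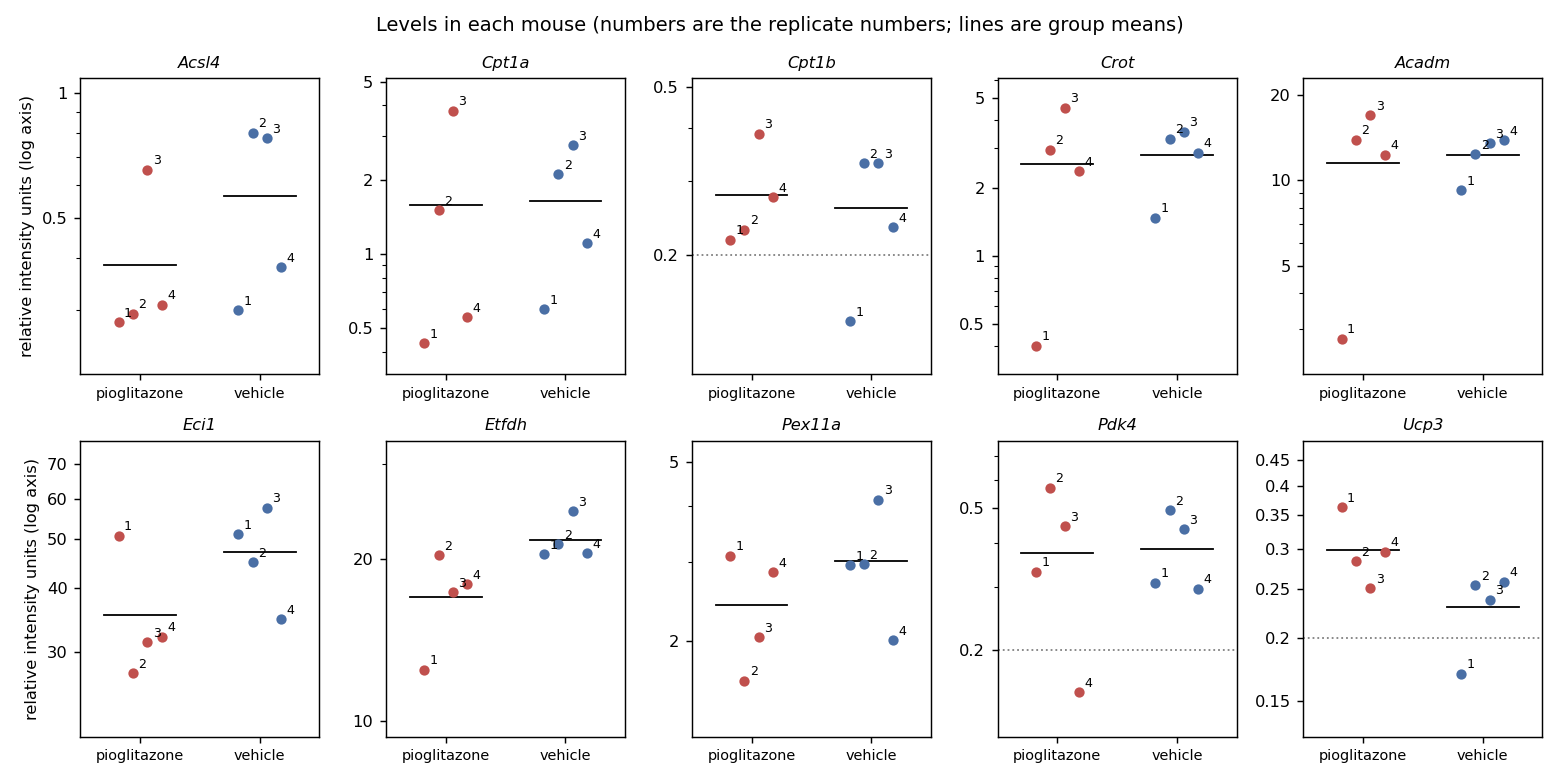
Levels of 10 genes in each mouse, pioglitazone left and vehicle right in each panel, in relative intensity units on a log axis. Digits are mouse numbers, lines are arithmetic group means and dotted lines mark the limit of sensitivity of 0.2 units. Mouse 1 is the lowest of its group on both sides for Acsl4, Cpt1a, Cpt1b, Crot, Acadm and Etfdh, and the groups are apart only for Etfdh.

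In the mitochondrial cycle 7 of 8 genes were measured, with log2 fold changes from -0.35 to 0.08. Acadm (chr3:153922353-153944643), the medium-chain acyl-CoA dehydrogenase, had the value farthest from 0. It was at 2.77, 13.9, 16.9 and 12.3 units in pioglitazone mice and at 9.23, 12.3, 13.5 and 13.8 units in vehicle mice. The difference rested on pioglitazone mouse 1: the other 3 pioglitazone mice lay at the level of the vehicle mice. Acadm had a log2 fold change of -0.35 (standard error 0.506, adjusted p = 0.918), and 0.24 without that mouse. Acads, the short-chain dehydrogenase, and Hadh, the hydroxyacyl-CoA dehydrogenase for short and medium chains, were also lowest in mouse 1 of both groups, with Acads at 0.512 units in pioglitazone mouse 1 and 0.577 units in vehicle mouse 1 and at 1.15 units or more in the other 6 mice.

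The dehydrogenases of longer chains were at the other end in mouse 1, where 25.2% of all named genes were highest in both groups. Acadl, the long-chain acyl-CoA dehydrogenase, was highest in mouse 1 of both groups, at 109 units in pioglitazone mouse 1 and 107 units in vehicle mouse 1. So was Acadvl, the very-long-chain enzyme, at 72.4 and 76.7 units in the same mice, and Hadhb, the thiolase subunit of the trifunctional protein, at 89.9 and 97.4 units. After quantile normalization only Acadvl of these genes was still highest in mouse 1 of both groups. Acadl and Acadvl were then lowest in mouse 3 of both groups. The log2 fold changes were 0.04 for Acadl, -0.22 for Acadvl and -0.12 for Hadhb, and a second, dimmer Hadhb probe gave 0.06. Acaa2, the mitochondrial thiolase, averaged 42.0 ± 11.3 units in pioglitazone mice and 41.8 ± 12.3 units in vehicle mice (SD, n = 4 each).

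All 3 enzymes listed for unsaturated chains were measured. Eci1 (chr17:24426683-24439316), an isomerase that moves the double bond of unsaturated chains, was at 50.7, 27.3, 31.4 and 32.2 units in pioglitazone mice, against 51.0, 45.0, 57.6 and 34.8 units in vehicle mice. Pioglitazone mice 2, 3 and 4 were below all vehicle mice, and pioglitazone mouse 1 was among the vehicle mice. Between the groups the log2 fold change was -0.43 (standard error 0.231, adjusted p = 0.838). Eci1 was called without pioglitazone mouse 1 (-0.62), without vehicle mouse 4 (-0.57) and without both mice numbered 1 (-0.57), each at an unadjusted p only. Eci2, its relative of mitochondria and peroxisomes, had a log2 fold change of 0.33, and Decr1, the dienoyl-CoA reductase, of -0.01.

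Electron transfer genes had log2 fold changes below 0 in 3 of 3 cases, and Etfdh (chr3:79603788-79628767), the oxidoreductase that hands electrons from the flavoprotein to ubiquinone, was the gene whose groups did not overlap. Its level was 12.4, 20.3, 17.4 and 18.0 units in pioglitazone mice, against 20.4, 21.3, 24.6 and 20.5 units in vehicle mice. Every pioglitazone mouse lay below every vehicle mouse, although pioglitazone mouse 2 and vehicle mouse 1 almost touched. The means were 17.0 ± 3.32 units in pioglitazone mice and 21.7 ± 1.95 units in vehicle mice (SD, n = 4 each). In limma the log2 fold change was -0.37 (standard error 0.175), with an interval of -0.76 to 0.03 and an adjusted p of 0.837. The exact permutation test gave p = 0.0286, as it does for any gene whose groups of 4 mice do not overlap. Etfa and Etfb, the subunits of the flavoprotein, had log2 fold changes of -0.15 and -0.21 with overlapping groups.

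Of the peroxisomal genes, Pex11a (chr7:79735957-79743131), which promotes division of the organelle, had the log2 fold change farthest from 0. Pioglitazone mice had 3.10, 1.64, 2.04 and 2.85 units and vehicle mice 2.96, 2.97, 4.13 and 2.01 units. The ranges overlapped, and pioglitazone mouse 1 was above every vehicle mouse but mouse 3. Its log2 fold change was -0.33 (standard error 0.267). Acox3, an oxidase of branched chains, had 0.01, Ehhadh, the bifunctional enzyme, -0.16, Hsd17b4, the second bifunctional enzyme, -0.07, and Acaa1a, a peroxisomal thiolase, 0.18, all as log2 fold changes. A probe shared by Acaa1a and Acaa1b gave -0.01.

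Pdk4 (chr6:5483351-5496278), the kinase that shuts off pyruvate dehydrogenase when fatty acids are burnt, is a standard readout of PPAR activity in muscle and liver. Its probe was dim in these ovaries, at 0.332, 0.572, 0.445 and 0.152 units in pioglitazone mice and 0.309, 0.494, 0.437 and 0.297 units in vehicle mice. Mice 2 and 3 were higher than mice 1 and 4 in both groups, and pioglitazone mouse 4 fell under 0.2. Pdk4 had a log2 fold change of -0.16 (standard error 0.381), and 0.22 without pioglitazone mouse 4.

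Ucp3 (chr7:100472991-100486432), a mitochondrial carrier of skeletal muscle and brown fat, had the highest log2 fold change of the 30 genes and was also near the limit of sensitivity. Pioglitazone mice had 0.363, 0.284, 0.251 and 0.297 units, against 0.17, 0.255, 0.238 and 0.258 units in vehicle mice. The groups overlapped in a narrow band, from pioglitazone mouse 3 to vehicle mouse 4, and vehicle mouse 1 was under 0.2. The log2 fold change was 0.38 (standard error 0.185, adjusted p = 0.837), and the exact permutation test gave p = 0.0857. Without pioglitazone mouse 3 Ucp3 was called, at 0.46. The mice numbered 1 lay at opposite ends here, the highest being pioglitazone mouse 1 and the lowest vehicle mouse 1.

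The probe annotated to both Cyp4a31 and Cyp4a10, fatty acid omega-hydroxylases that are strong PPAR alpha targets in rodent liver, is given after its values were seen. It was at 4.29, 4.13, 4.20 and 4.24 units in pioglitazone mice and at 6.02, 5.27, 6.64 and 4.47 units in vehicle mice. The pioglitazone mice were tightly bunched below all vehicle mice, and vehicle mouse 4 was close to them. The log2 fold change was -0.40 (standard error 0.152, adjusted p = 0.837), and the probe was called at an unadjusted limma p without the block (0.0281) and with it (0.0345). With the groups apart, the exact permutation test gave p = 0.0286. The brightest probe for Cyp4a31 alone gave a log2 fold change of 0.19, and another gave 0.04. A further probe for Cyp4a31 alone was under 0.2 units in every mouse, at means of 0.0534 units with pioglitazone and 0.0962 units with vehicle. Which of the genes the shared probe measured could not be told.

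The spread of each gene over the mice was also set against the mouse number. Mice of equal number in the 2 groups were different animals, and what the number stands for is not given in the sources used here. The sum of squares of each gene over the 8 mice was split into a share between treatments (1 degree of freedom of 7) and a share between mouse numbers (3 of 7). Among the 30 genes the median share was 5.98% between treatments and 65.8% between mouse numbers, against 8.34% and 54.0% over all named genes. By degrees of freedom alone, with no effect of either, the mean shares would be 14.3% and 42.9%. These are means, so the medians above cannot be set against them directly. The share between mouse numbers was the larger in 28 of the 30 genes, where 84.3% of all named genes showed the same. The exceptions were Etfdh, with 45.7% between treatments and 32.5% between numbers, and Ucp3, with 42.8% and 6.7%. At the other end, Acads had 97.0% between numbers, Fabp3 91.4% and Cpt1a 91.2%.

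**Figure D3:**
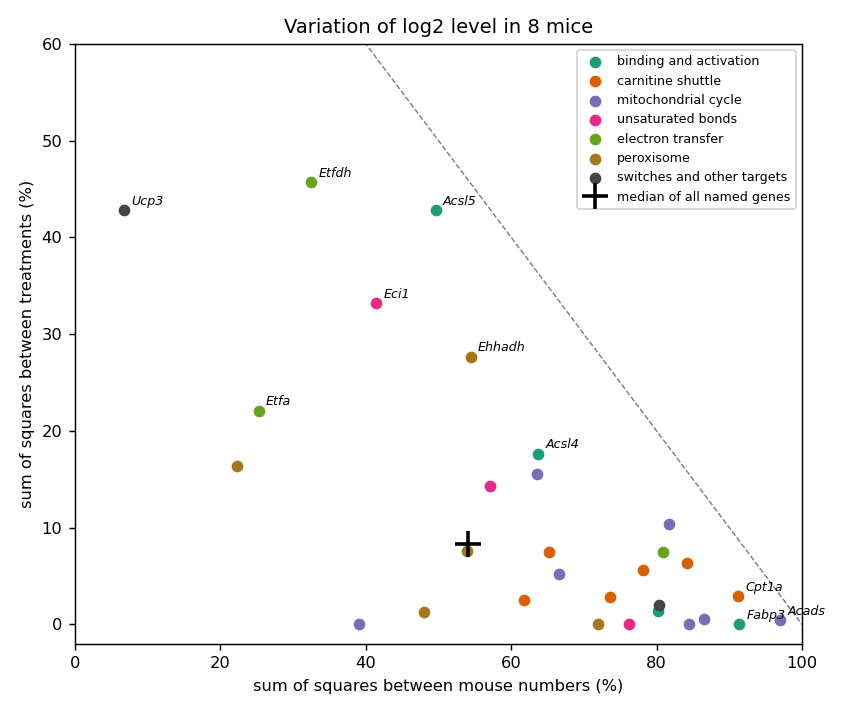
Share of the sum of squares of the log2 level between treatments (vertical axis, %) and between mouse numbers (horizontal axis, %) for the 30 genes, coloured by role, with a cross at the medians of all named genes (8.34% and 54.0%). The dashed line marks a total of 100%. Most genes lie low and to the right. The share between treatments is the larger only for Ucp3 (42.8% and 6.7%) and Etfdh (45.7% and 32.5%). Acsl5 (42.8% and 49.6%) lies as high as Ucp3.

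The pattern behind these shares was uneven over the pathway. The mice numbered 1 were each the lowest of their own group for 12 of the 30 genes, against 10.4% of all named genes. These were Acsl4, Acox3, Etfdh, Acadm, Acads, Hadh and the whole carnitine shuttle (Cpt1a, Cpt1b, Cpt2, Slc25a20, Crat and Crot). Some gaps were small, as for Etfdh at 20.4 units in vehicle mouse 1 and 20.5 units in vehicle mouse 4. The mice numbered 1 were each the highest of their own group for 8 genes, against 25.2% of all named genes. These 8 were Fabp3, Acsl3, Acadvl, Acadl, Hadhb, Decr1, Etfb and Acaa1a. Mean levels over all mice ran from 0.268 to 19.4 units in the 12 genes. In the other 18 genes they ran from 0.264 to 90.6 units. The dimmest of the 8 highest genes was Acsl3, at means of 11.96 units with pioglitazone and 13.5 units with vehicle. Ucp3 and Pdk4 had dim probes and were in neither set. The low and high sets thus differed in probe brightness, and its part in the pattern was not tested. Mouse 3 was the highest in both groups for 6 genes, against 10.3%, and all 6 were among the 12. Quantile normalization left the 12 in place and added Hsd17b4, whereas it left only 3 of the 8 (Fabp3, Acadvl and Etfb). Among 55 other genes of the pathway 5 were lowest and 13 were highest in mouse 1 of both groups, against the same 10.4% and 25.2% of all named genes. The pattern of the 12 was thus not seen in these other genes. The pattern was noticed in these data and was not tested. It describes mouse numbers and is not a comparison of the treatments. With 1 mouse of each number per group, what set the mice numbered 1 apart cannot be told.

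**Figure D4:**
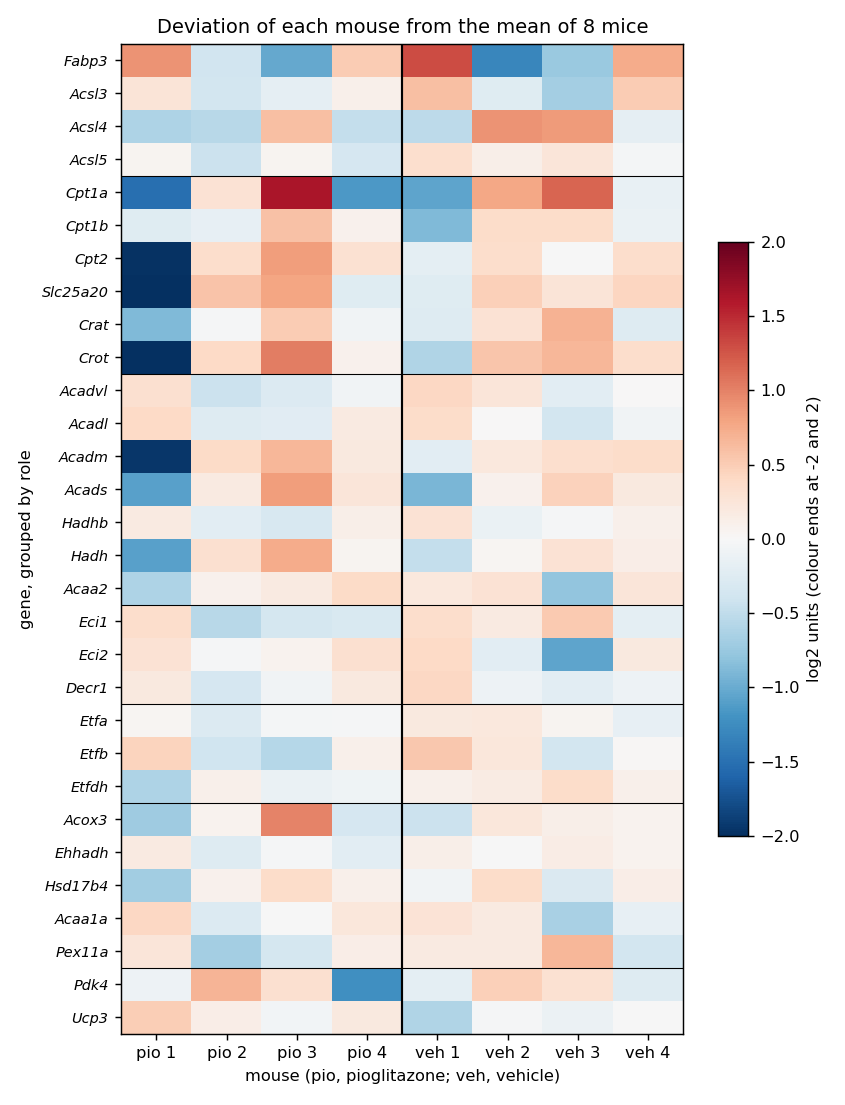
Deviation of each mouse (columns, pioglitazone left, vehicle right) from the mean of the 8 mice, in log2 units, for the 30 genes (rows, grouped by role). Blue is below and red above the gene's mean, and the colours end at -2 and 2. The carnitine shuttle rows and Acadm, Acads and Hadh are blue in mouse 1 of both groups, deeper in pioglitazone mouse 1 than in vehicle mouse 1 except for Cpt1b.

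Markers of ovarian cell types also differed between the mice, and not all in the same order. The summed level of 6 of 8 luteal markers was 133, 251, 330 and 239 units in pioglitazone mice and 277, 378, 372 and 263 units in vehicle mice. Pioglitazone mouse 1 was lowest of all, and vehicle mouse 4 was the lowest vehicle mouse. Hsd3b1 made up most of the sum, at 113 to 215 units in pioglitazone mice and 197 to 242 units in vehicle mice. Of the 6 luteal markers, Cyp11a1, Scarb1 and Akr1c18 were lowest in mouse 1 of both groups, and none was at 0. Among vehicle mice Star and Hsd3b1 were lowest in mouse 4. Ptgfr, on its brightest probe, was lowest in pioglitazone mouse 4. Without the block 0 of the 6 were called, against 4.85% of all named genes. With it 4 were (Star, Cyp11a1, Scarb1 and Akr1c18, all lower with pioglitazone), against 8.02% of all named genes in either direction and 5.33% lower. Cyp11a1, the enzyme that makes pregnenolone from cholesterol, had 10.7, 41.7, 59.4 and 23.7 units in pioglitazone mice and 30.0, 67.6, 68.2 and 46.1 units in vehicle mice. As for Cpt1a, mice 2 and 3 were above mice 1 and 4 in each group, and pioglitazone mouse 1 was the lowest of all. In all, 5 of 6 markers of theca and stroma summed to 470, 317, 281 and 304 units in pioglitazone mice and to 543, 249, 220 and 394 units in vehicle mice. Among them Cyp17a1, the androgen-forming enzyme of theca cells, had 228, 75.6, 9.07 and 77.9 units in pioglitazone mice and 297, 17.7, 7.17 and 170 units in vehicle mice. As for Fabp3, mice 1 and 4 were above mice 2 and 3 in each group. The sum over theca and stroma mostly followed Cyp17a1, and the other 4 markers (Tcf21, Pdgfra, Acta2 and Myh11) did not order the mice in this way. Granulosa markers (8 of 9) summed to 106, 176, 98.9 and 176 units in pioglitazone mice and to 101, 90.4, 101 and 119 units in vehicle mice, and 3 of the 8 (Inha, Amh and Fst) were lowest in mouse 1 of both groups. Over all cell type markers, 2 of 46 tested were called without the block (Fst and Myh11, both higher with pioglitazone) and 8 of 46 with it, namely these, the 4 luteal markers, Nr5a2 of granulosa cells (higher) and C1qa of macrophages (lower).

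The 8 of 8 oocyte markers measured summed to between 69.8 and 119.9 units in pioglitazone mice and between 67.1 and 106 units in vehicle mice. Zp3 was the brightest, at 29.5 to 62.8 units in pioglitazone mice and 32.4 to 46.8 units in vehicle mice. Of the 8 markers, 5 (Zp1, Zp2, Zp3, Oosp1 and Dppa3) were lowest in mouse 3 of both groups, against 11.2% of all named genes. Fat and muscle, which are rich in these genes, were measured by their own markers. The summed level of 8 of 10 adipocyte markers was 155, 52.0, 57.1 and 28.8 units in pioglitazone mice and 55.3, 88.0, 53.3 and 43.6 units in vehicle mice, and pioglitazone mouse 1 was the highest. Among them Adipoq was at 40.2 units in pioglitazone mouse 1 and between 1.54 and 10.7 units in the other 7 mice, and Lipe was under 0.2 units in all but 1 mouse. Fabp4, Lep, Cidec, Retn and Lpl were also highest in pioglitazone mouse 1. Pnpla2 went the other way, at 0.39 units in that mouse and between 0.941 and 3.23 units in the other 7 mice. It was lowest in mouse 1 of both groups. The summed level of 8 of 8 skeletal muscle markers stayed between 2.95 and 3.95 units in pioglitazone mice and between 2.91 and 4.04 units in vehicle mice. In whole ovary, fewer cells of a type and less RNA per cell cannot be told apart, and the part of these cell types in the levels of the pathway was not tested.

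**Figure D5:**
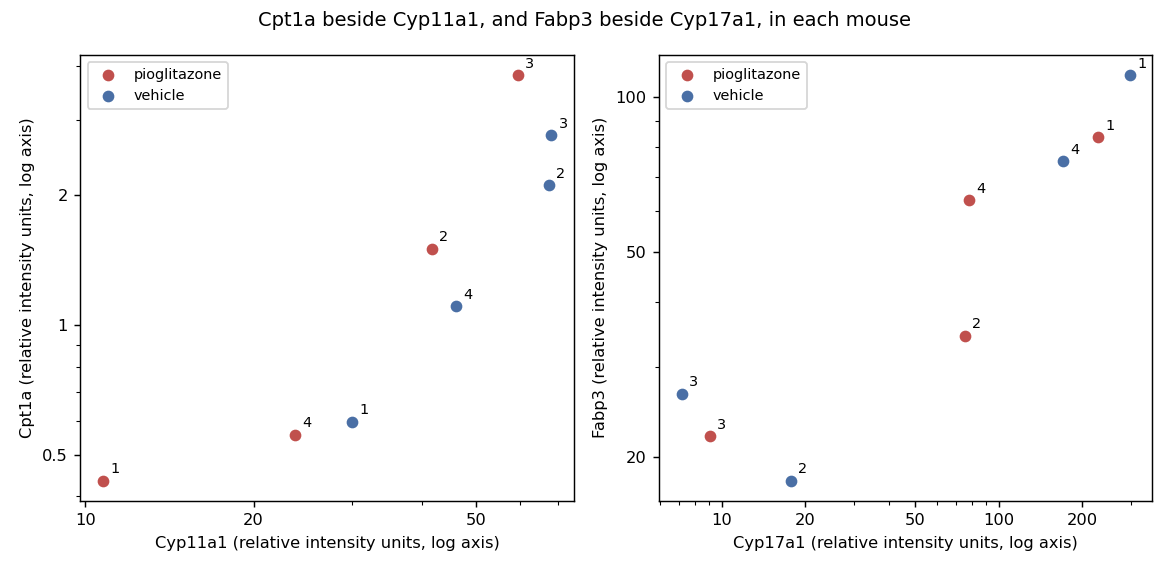
Cpt1a (left panel, vertical axis) beside Cyp11a1 (horizontal axis), and Fabp3 (right panel, vertical axis) beside Cyp17a1 (horizontal axis), in each mouse, in relative intensity units on log axes. Digits are mouse numbers and colours give the treatment. Both pairs were chosen after the values were seen. Pioglitazone mouse 1 is lowest for Cpt1a (0.435 units) and for Cyp11a1 (10.7 units), and vehicle mouse 1 is highest for Fabp3 (110 units) and for Cyp17a1 (297 units).

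The other genes of the pathway were 68 in number, of which 55 had a named probe and 49 passed the filter. They comprised further mitochondrial and peroxisomal enzymes, ketone body enzymes, the receptors with their coactivators, and other PPAR targets. Log2 fold changes were above 0 in 25 and below 0 in 24, with a median of 0.01. Of these, 0 were called higher and 3 lower, against 1.57% and 3.27% of all named genes. Ppargc1a, Cyp4a14, Fgf21, Fabp1, Aqp7 and Ucp1 were under 0.2 units on average in both groups.

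Angptl4, a secreted inhibitor of lipoprotein lipase, had 34.04, 34.8, 30.3 and 45.1 units in pioglitazone mice, against 52.5, 67.3, 57.3 and 47.5 units in vehicle mice. Every pioglitazone mouse was below every vehicle mouse. The log2 fold change was -0.64 (standard error 0.173, adjusted p = 0.837), and it stayed called in each setting tried. Hilpda, a lipid droplet protein, was at 9.32, 7.12, 7.37 and 7.90 units in pioglitazone mice and at 9.94, 10.1, 11.0 and 9.39 units in vehicle mice, with a log2 fold change of -0.35. The groups did not overlap, but pioglitazone mouse 1 and vehicle mouse 4 were close, and Hilpda was not called in 6 of the 8 fits with 1 mouse left out or with quantile normalization.

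Among the receptors, Ppard had 2.10, 2.24, 1.92 and 1.75 units in pioglitazone mice, against 2.48, 2.37, 2.75 and 2.42 units in vehicle mice, a log2 fold change of -0.33 (standard error 0.136, adjusted p = 0.837). All pioglitazone mice were below all vehicle mice, but Ppard was not called with the mouse number as a block, with quantile normalization or in 6 of the 8 fits with 1 mouse left out. The groups overlapped for Ppara, at 0.927 ± 0.132 units in pioglitazone mice and 0.891 ± 0.149 units in vehicle mice, and for Pparg, at 5.61 ± 0.913 and 4.83 ± 1.38 units (SD, n = 4 each). Their log2 fold changes were 0.06 and 0.26. With the block, Me1, the cytosolic malic enzyme, was called lower (-0.67) and Eci3, a peroxisomal isomerase, higher (0.34), while Angptl4 and Hilpda were called as well.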

How the data were processed

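RNA from 1 ovary of each of 8 LY mice was hybridised to 8 CodeLink whole mouse arrays. The authors scanned the slides, corrected background in the CodeLink software and scaled each slide to its median, and the deposited values are linear intensity per probe with -9999 for a missing spot. The deposited array medians were 1.007 to 1.014. After division by the array median and a floor of 0.05, the comparison was run on log2 values in limma 3.58.1 (lmFit and eBayes; R 4.3.3), and p values were adjusted by Benjamini-Hochberg. Probes needed 3 values per group and a mean of 0.2 in 1 group. Genes were named from the platform annotation, which gives 1 gene for 21615 of 36227 probes. Levels are arithmetic means and log2 fold changes come from limma. Unadjusted p values in the text are from limma unless an exact permutation test is named. That test was 2-sided, over 70 assignments of mice, on the difference of mean log2 values. The precision is limited by 4 arrays per group.

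The labels number the mice 1 to 4 in each group without saying what the number marks. Deviations from the group means correlated at 0.515, 0.181, 0.274 and 0.232 between mice of equal number, and at -0.528 to 0.369 between mice of unequal number, the highest being pioglitazone mouse 3 with vehicle mouse 2. The number was also fitted as a block. Other floors, scalings, filters, an intensity trend, the methods' test and leaving out each mouse were tried, and a fit without both mice numbered 1 was added after seeing the data. Genes given mouse by mouse were those called, those whose groups did not overlap, the largest change of each role, and Cpt1a, Cpt1b, Acadm, Pdk4 and Ucp3. The genes and lists were chosen with earlier results of these data known. The untreated BL mice of the study were not analysed here. The fit was tested on simulated data.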

Additional observations from a re-analysis of the deposited data

Results flagged for a closer look

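The spacing of the 4 mice was examined in 60 groups, the 30 genes in each treatment. A single mouse stood apart in 2 of them, where chance flags about 1 in 20 groups. Acsl4 was at 0.653 units in pioglitazone mouse 3, against 0.281 to 0.309 units in the other pioglitazone mice. Acaa2 was at 23.4 units in vehicle mouse 3, against 46.5 to 49.4 units in the other vehicle mice, and its log2 fold change of 0.02 became -0.24 without that mouse.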

How the results depend on the processing

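The count of 0 of 30 genes held with other floors, no scaling, other filters, an intensity trend, the methods' test, quantile normalization, the mean over all probes of a gene and the replicate block, and the count of 0 at an adjusted p held for all probes in each of these fits that covered them. With the replicate block 2635 probes were called at an unadjusted p, against 1685 without it, and 4 of the other pathway genes, against 3. No other call on the 30 genes changed under the block. Quantile normalization left 1 of the other pathway genes called (Angptl4), moved the median of the 30 genes to -0.062, and split the probes called into 691 higher and 799 lower with pioglitazone, against 603 higher and 1082 lower otherwise. The methods' test called 2130 probes and 5 of the other pathway genes.

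With each mouse left out in turn, the count ran from 0 to 2 of the 30 genes (Acsl4 and Ucp3 without pioglitazone mouse 3, Eci1 without pioglitazone mouse 1 or vehicle mouse 4, Etfdh without pioglitazone mouse 2), from 1 to 5 of the other pathway genes, and from 737 probes (without pioglitazone mouse 4) to 2443. The median of the 30 genes ran from -0.195 to -0.028, the end nearest 0 being without pioglitazone mouse 1. Without both mice numbered 1 it was -0.018 and 1 gene was called (Eci1). The cause of these shifts was not tested.

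Log2 fold changes that took both signs with a mouse left out ran from -0.97 to 0.071 for Cpt1a, -0.91 to 0.25 for Crot, -0.79 to 0.14 for Slc25a20, -0.63 to 0.24 for Acadm, -0.57 to 0.37 for Cpt2, -0.44 to 0.020 for Crat and -0.12 to 0.29 for Cpt1b. They ran from -0.43 to 0.44 for Fabp3, -0.34 to 0.086 for Acsl3, -0.20 to 0.46 for Acads, -0.24 to 0.38 for Hadh, -0.084 to 0.17 for Acadl, -0.24 to 0.23 for Acaa2 and -0.080 to 0.13 for Decr1. They ran from -0.32 to 0.24 for Acox3, -0.21 to 0.14 for Hsd17b4, -0.0078 to 0.30 for Acaa1a, -0.41 to 0.22 for Pdk4 and -0.050 to 0.15 for Ppara. Without both mice numbered 1 the sign turned for Cpt1b (-0.019), Cpt2 (0.26), Acadm (0.11), Decr1 (0.062) and Hsd17b4 (0.11), and with quantile normalization for Hadhb (0.023), Decr1 (0.078), Acox3 (-0.016) and Hsd17b4 (0.025).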

Other observations

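The looser repeat, built from 2 copies of AGGNCA with 1 base between them, was found in 1 window of the wider pathway. It lay before Fabp1, the liver fatty acid binding protein, beginning 67 bases before the start site and on the opposite strand. Fabp1 was under 0.2 units on average in both groups of ovaries. Among the other pathway genes the hexamer AGGTCA lay in 17 of 63 windows (27.0%), against 14.0% of all windows. The 63 windows belong to 46 genes, so some genes were counted more than once.

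Txnip, an inhibitor of thioredoxin, had probes that ordered the mice differently. Its brightest probe was at 219.8, 149, 183 and 219.6 units in pioglitazone mice and 224, 156, 144 and 166 units in vehicle mice, and its second probe at 7.85, 30.1, 49.2 and 37.5 units in pioglitazone mice and 16.9, 17.2, 17.8 and 36.3 units in vehicle mice.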
